A study of Mus musculus with 2 samples.

Results

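Of 4033 CD3-negative Il7r-positive cells from the small intestine of aged mice, 219 held 4 or more transcript molecules of MHC class II genes and are called class II positive here, and 3228 held none and are called class II zero. The count was the sum of H2-Aa, H2-Ab1, H2-Eb1 and Cd74 unique molecular identifiers (UMIs), each of which stands for 1 captured transcript. The remaining 586 cells held 1 to 3 such UMIs and belonged to neither side. The cells were drawn from 7381 that carried the sample tag of 1 of 2 replicates. Cells were taken if they had at least 300 detected genes, at most 25% mitochondrial UMIs, a UMI of Il7r, no UMI of Cd3d, Cd3e, Cd3g or Trac, and none of the B cell and myeloid genes Cd79a, Ms4a1 and Lyz2. Replicate 1 gave 142 class II positive and 1269 class II zero cells, and replicate 2 gave 77 and 1959.

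The study sorted group 3 innate lymphoid cells (ILC3s) from the small intestinal lamina propria of male C57BL/6 mice aged 18 months, and profiled them with BD Rhapsody, a microwell platform for single-cell RNA sequencing. There was 1 group with 2 replicates, labelled by sample tags 6 and 12 and read in separate libraries. The labels gave neither a genetic change nor the number of animals behind a replicate, so the spread between these 2 samples may be technical. Other cells of the same libraries carried other tags and were not used. The own-tag cells held 7011649 UMIs in replicate 1 and 6845914 in replicate 2, and 10 cell numbers occurred in both. Marker genes of the sort were present: a UMI of Kit, Il23r, Il1r1 or Rora was found in 94.4% and 97.4% of class II positive cells and in 96.9% and 98.0% of class II zero cells of replicates 1 and 2. Cells with a CD3 or Trac UMI had such a UMI in 93.6% and 95.4%. A UMI of any of these genes thus did not separate ILCs from the T cells of the same sort. Rora was found in 89.9% and 92.8% of the CD3 or Trac cells. Kit did differ, at 52.1% and 48.1% of class II positive and 45.9% and 36.2% of class II zero cells. In CD3 or Trac cells it was found in 17.5% and 12.7%.

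MHC class II molecules carry peptides from ingested proteins to the cell surface, where CD4 T cells read them. The alpha and beta chains, encoded by genes such as H2-Aa and H2-Ab1, are assembled on the invariant chain Cd74, which is cut away by cathepsins before H2-DM loads the peptide. Professional antigen-presenting cells make these genes through the transactivator Ciita, and among intestinal ILC3s the CCR6-positive, lymphoid tissue inducer (LTi) type is known for class II, while the NKp46-positive type is not.

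The class II genes share a promoter layout in which an X box lies upstream of a Y box before the start site, and the stretches below mark their letters for 3 genes that were detected in the class II positive cells and for H2-Ob, which was almost undetected. Each runs 5′ to 3′ from base -140 to base -21 before the RefSeq start site, on build GRCm38.p6, and capitals mark the Y box core GATTGG, the X1 letters GCAAC and the X2 letters ATGATGC.
H2-Aa, chr17:34287844-34287963, minus strand: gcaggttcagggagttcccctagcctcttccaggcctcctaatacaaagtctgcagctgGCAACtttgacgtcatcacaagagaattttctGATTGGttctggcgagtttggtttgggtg
H2-Eb1, chr17:34305727-34305846, plus strand: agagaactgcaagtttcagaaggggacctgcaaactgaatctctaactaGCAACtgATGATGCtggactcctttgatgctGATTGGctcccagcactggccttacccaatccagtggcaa
H2-DMb2, chr17:34145109-34145228, plus strand: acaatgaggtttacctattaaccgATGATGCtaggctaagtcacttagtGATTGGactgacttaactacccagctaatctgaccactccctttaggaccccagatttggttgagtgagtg
H2-Ob, chr17:34238765-34238884, plus strand: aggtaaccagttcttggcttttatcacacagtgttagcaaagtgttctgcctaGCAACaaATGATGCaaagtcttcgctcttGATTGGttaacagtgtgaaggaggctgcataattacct
The Y box core began at -49 in H2-Aa, -60 in H2-Eb1, -91 in H2-DMb2 and -58 in H2-Ob. The X1 letters began at -81, -91 and -87 in H2-Aa, H2-Eb1 and H2-Ob, and the X2 letters at -84, -116 and -80 in H2-Eb1, H2-DMb2 and H2-Ob, with no overlap between motifs. Among the 250 bases before each of 32851 mouse start sites, on either strand, GATTGG was found in 14.6%, GCAAC in 29.9%, ATGATGC in 1.99%, and GATTGG together with either of the others in 4.98%. The letters were chosen after the stretches were seen, and a match is a description of the sequence only. H2-Ab1, Ciita and Cd83 are named without a sequence. In the GENCODE annotation of GRCm38 the I-A and I-E genes lie side by side on chromosome 17, H2-Ab1 at 34257689 to 34269419, H2-Aa at 34282744 to 34287823 and H2-Eb1 at 34305867 to 34316674.

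Class II positive cells were 7.93% of the CD3-negative Il7r-positive cells in replicate 1 (exact Clopper-Pearson 95% interval 6.72% to 9.28%) and 3.43% in replicate 2 (2.72% to 4.27%), a mean of 5.68% ± 3.18 (SD, n = 2). The 2 intervals did not overlap. These intervals cover counting error only. Mouse T cells should lack class II transcripts, and in cells with a CD3 or Trac UMI the share with 4 or more class II UMIs was 3.43% in replicate 1 and 1.45% in replicate 2, below the ILC share of the same replicate. Unlike the ILCs, these cells needed no Il7r UMI and could hold UMIs of Cd79a, Ms4a1 or Lyz2. The richest of them held 806 and 99 class II UMIs. Median depth was 1825 and 1658.5 UMIs per cell in the ILCs and 1976 and 1737 in the CD3 or Trac cells. With every cell thinned to 1000 UMIs, which left out 112 and 174 shallower ILCs and 41 and 81 CD3 or Trac cells, the shares were 4.65% and 2.37% in ILCs and 1.89% and 1.08% in CD3 or Trac cells.

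The share differed between kinds of ILC in both replicates. It was 31.7% (23.7% to 40.6%) in replicate 1 and 32.8% (21.01% to 46.3%) in replicate 2 among ILCs with a UMI of Ccr6, the chemokine receptor of LTi-type cells, or of Cd4. Among ILCs with a UMI of Ncr1, the gene of NKp46, it was 2.77% (1.52% to 4.599%) and 0.508% (0.0615% to 1.82%). These shares lay below those of the less filtered CD3 or Trac cells of the same replicate. The intervals overlapped, those of the CD3 or Trac cells being 2.51% to 4.57% and 0.887% to 2.23%. Thinned to 1000 UMIs, Ccr6 or Cd4 cells stood at 20.2% and 25.5%, and Ncr1 cells at 0.607% and 0 of 379 cells, which allows a share of up to 0.969% by the exact interval. The replicates differed in the share over all ILCs, while the intervals of their Ccr6 or Cd4 cells overlapped.

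**Figure D1:**
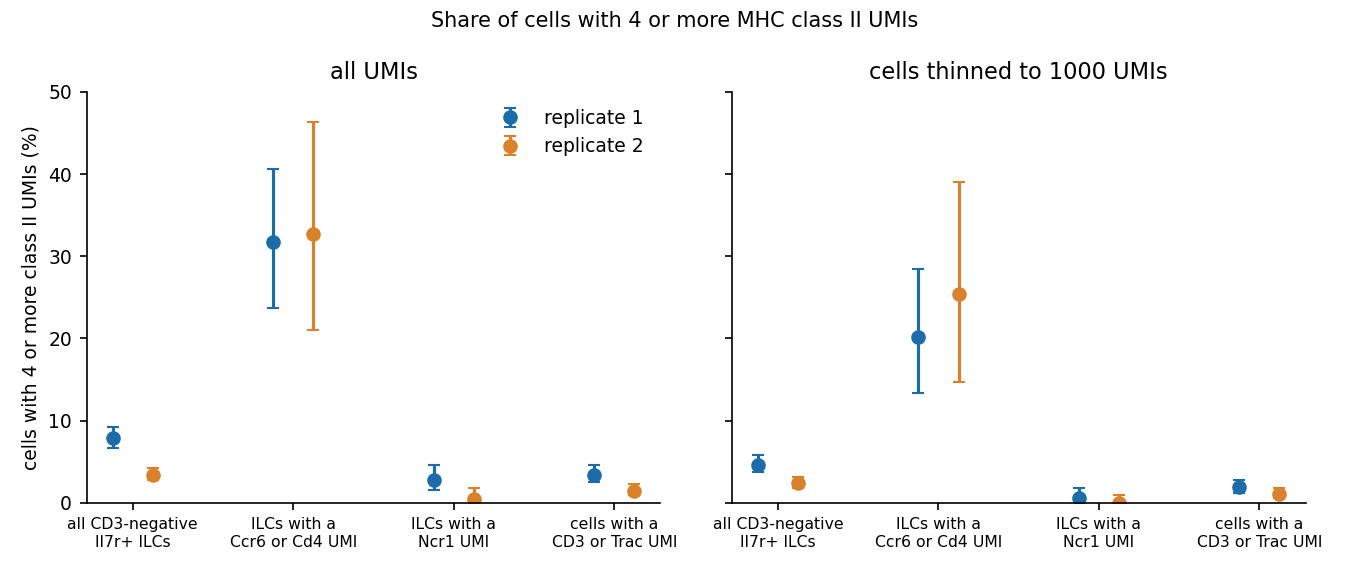
Share of cells with 4 or more UMIs of H2-Aa, H2-Ab1, H2-Eb1 and Cd74 (vertical axis, percent) in 4 kinds of cell (horizontal axis), with all UMIs on the left and with cells thinned to 1000 UMIs on the right. Points are replicates and bars exact 95% binomial intervals; Ccr6 or Cd4 cells lie at 31.7% and 32.8% on the left, above the other 3 kinds in both replicates.

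The cells were chosen by the UMIs of these 4 class II genes, so their levels are given without a test. H2-Aa, the alpha chain of I-A, stood at 1982 and 2939 CPM (UMIs scaled to 1000000 per sum) in the summed class II positive cells of replicates 1 and 2, and H2-Ab1, its beta chain, at 1378 and 1562 CPM. H2-Eb1, the beta chain gene of I-E, stood at 1326 and 1888 CPM, and Cd74 at 2642 and 4352 CPM. Every one of these genes was at 0 in class II zero cells by the rule. UMIs of all 4 genes occurred in 40.8% of the class II positive cells of replicate 1 and in 39.0% of those of replicate 2. The number of class II UMIs per positive cell had a median of 7.5 in replicate 1 and 8 in replicate 2, and reached 148 and 315 in the richest cell. Just inside the threshold, 40 and 10 cells had exactly 4 UMIs, with H2-Aa at 461 and 515 CPM and Cd74 at 972 and 1146 CPM. Just outside it, 37 and 24 cells had exactly 3, with H2-Aa at 490 and 379 CPM and Cd74 at 625 and 780 CPM.

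The balance between the I-A chains is described without a test, since both genes were part of the rule. H2-Aa made up 59.0% of H2-Aa plus H2-Ab1 UMIs in class II positive cells of replicate 1 (55.9% to 62.0%) and 65.3% in those of replicate 2 (61.5% to 69.0%). In cells with 1 to 3 class II UMIs it made up 46.7% (40.4% to 53.0%) and 44.4% (36.0% to 52.9%), and in CD3 or Trac cells 46.4% (44.0% to 48.8%) and 50.6% (44.1% to 57.1%). Cells with a Cd79a, Ms4a1 or Lyz2 UMI and no CD3 or Trac UMI, which were left out of the comparison, had 43.5% (40.4% to 46.6%) and 45.1% (37.8% to 52.6%). These 37 and 11 cells were mixed, with a median of 1 and 13 class II UMIs and 803 and 299 in the richest cell. Class II positive cells lay above these 3 kinds in both replicates, while the cells with exactly 3 class II UMIs stood at 62.1% and 50%. The intervals treat UMIs as independent, which UMIs of the same cell are not.

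To find what else distinguished the cells, UMIs were summed per replicate and side, and the 4 sums were compared with edgeR's quasi-likelihood test with the replicate as a block. The sums held 307777 and 140857 UMIs for class II positive cells and 2405383 and 3377925 for class II zero cells. Of 8079 genes tested, leaving out the 12 genes of the rule, 382 (4.73%) were higher and 307 (3.8%) lower in class II positive cells at a Benjamini-Hochberg adjusted p of 0.05, which makes 8.53% in either direction. The median log2 ratio over all tested genes was -0.03. Both replicates had the same sign for 324 of the 382 higher genes and for 305 of the 307 lower genes. In 72 of the higher genes, 1 cell gave as many UMIs of the positive side as all its other cells together, or more. Without the replicate block the counts were 70 and 12, and with DESeq2 they were 186 and 65. The fit has 1 residual degree of freedom and takes each gene's spread from the trend over all genes, so p-values do not measure a gene's own spread between the 2 samples, and a gene that moved in 1 replicate only can pass.

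**Figure D2:**
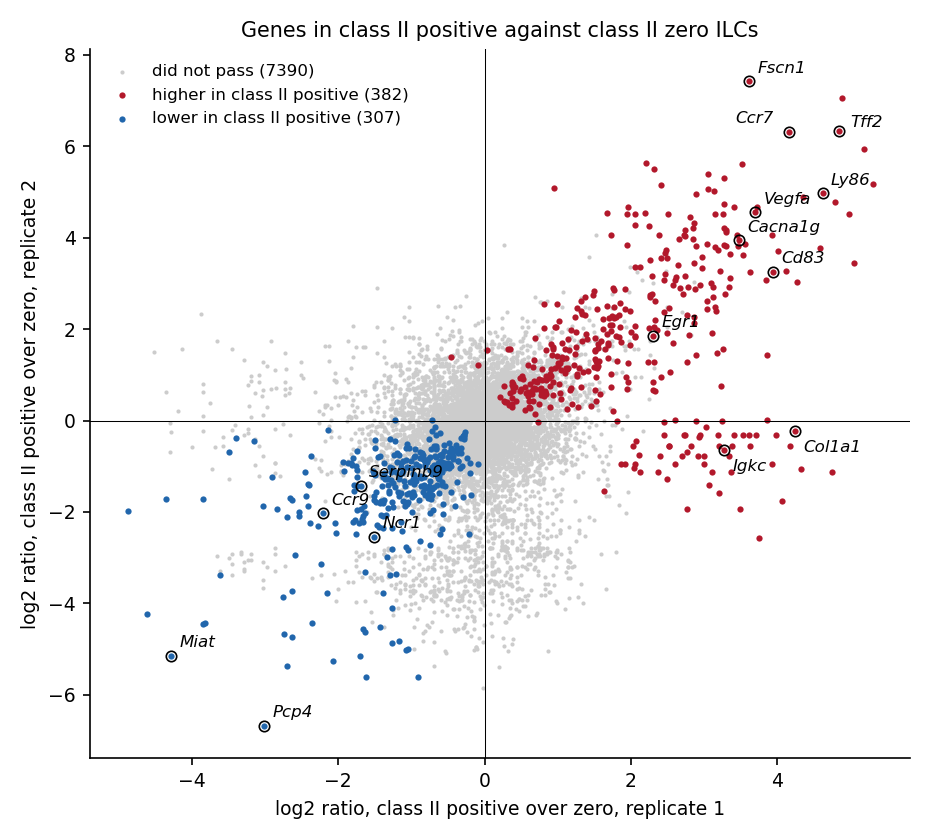
Log2 ratio of class II positive over class II zero ILCs in replicate 1 (horizontal axis) and replicate 2 (vertical axis), from summed UMIs with a prior count of 2; each point is 1 of 8079 tested genes, red for the 382 higher and blue for the 307 lower genes at adjusted p 0.05. Most coloured points lie in the upper right or lower left, while Col1a1 and Igkc are high in replicate 1 only.

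Class II presentation genes outside the rule were mostly higher in class II positive cells. Of 20 such genes 11 had enough UMIs to be tested, with a median log2 ratio of 1.34. Of these, 6 were higher and 1 lower, beside 4.73% and 3.8% of all tested genes. Cd83, which keeps class II molecules on the surface by blocking their ubiquitination, stood at 942 and 951 CPM in class II positive cells of replicates 1 and 2 and at 62.4 and 95.03 CPM in class II zero cells. The ratio was 12.3-fold (log2 3.62 ± 0.17 SE, adjusted p = 1.5e-94), and the groups were far apart in both replicates. Ctss, the cathepsin S that trims the invariant chain, stood at 399.6 and 319 CPM against 175 and 111 CPM (log2 1.34 ± 0.19, adjusted p = 5.1e-10). Ctsl, cathepsin L, stood at 166 and 85.2 against 50.7 and 40.3 CPM (log2 1.51 ± 0.30). Ctsb, another lysosomal cathepsin, was the gene that fell, at 344 and 199 against 505 and 368 CPM (log2 -0.65 ± 0.18).

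The peptide-loading H2-DM genes were sparse. H2-DMa had 18 and 3 UMIs in class II positive cells, or 58.5 and 21.3 CPM, against 9.98 and 2.96 CPM in class II zero cells (log2 2.64 ± 0.66, adjusted p = 0.0014). H2-DMb2 had 14 and 6 UMIs, from 5 and 3 cells, against 1 and 1 UMIs in the much larger class II zero sums. Its ratio was 102 in the fit. With both replicates pooled it was 129, with a counting interval of 31.3 to 1138. Both genes, and Ctsl, no longer passed without the 8 class II positive cells rich in stromal or dendritic cell transcripts that are described below. H2-DMb1, with 7 and 1 UMIs in class II positive cells, H2-Oa, with 8 and 0, and H2-Ob, with 1 and 0, were too sparse to test. The tetraspanin gene Cd9 rose from 9.98 and 8.88 CPM to 61.7 and 56.8 CPM (log2 2.65 ± 0.51). Without the replicate block H2-DMa, Ctss, Ctsl and Ctsb lost the call, and with DESeq2 H2-DMa, Ctsl and Ctsb. After thinning H2-DMa, H2-DMb2, Ctsl and Cd9 lost it. Ctsb also lost it with the positive side at 2 or more UMIs, at 8 or more, and without Ccr6 or Cd4 cells.

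Ciita, the class II transactivator, had 4 UMIs in class II positive cells of replicate 1 and 0 in those of replicate 2, and 7 and 6 in the many more class II zero cells, which was too few to test. Spi1, which encodes PU.1, had 7 and 3 UMIs in class II positive cells and none in class II zero cells, and was also not tested. Of 20 tested genes, among them Rfx5, Rfxap, Rfxank, Nfya, Irf1 and Gbp2, 1 was higher and 1 lower, close to the 8.53% called among all tested genes, with a median log2 ratio of -0.00. The 2 that passed were the chains of the interferon gamma receptor, and they went in opposite directions. Ifngr2 stood at 48.7 and 35.5 CPM in class II positive against 8.73 and 7.70 CPM in class II zero cells (log2 2.38 ± 0.60, adjusted p = 0.0014), and Ifngr1 at 656 and 703 against 1337 and 1533 CPM (log2 -1.06 ± 0.13, adjusted p = 2.8e-13). None of 16 class I presentation genes passed, among them H2-K1, H2-D1, B2m and Tap1, and their log2 ratios ran from -0.31 to 0.43. At an unadjusted p under 0.05 edgeR passed 0 of these 16 genes, and DESeq2 called 0 of them.

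Of the costimulatory ligands, Cd80 had 0 and 2 UMIs in class II positive cells, Cd86 2 and 3, and Cd40 3 and 2, too few to test. Among 7 ligands tested, 2 TNF family members were higher, beside 4.73% of all tested genes. Tnfsf4, which encodes OX40 ligand, stood at 45.5 and 121 CPM against 4.16 and 2.37 CPM (log2 4.55 ± 0.63, adjusted p = 5.0e-11), from 7 and 10 cells. Tnfsf8, which encodes CD30 ligand, stood at 35.7 and 156 CPM against 7.07 and 5.33 CPM (log2 3.73 ± 0.52, adjusted p = 7.7e-11). The other 5, which included Cd274 and Icosl, ran from -0.76 to 1.78 and did not pass.

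Genes of the LTi type were higher in class II positive cells. All 15 genes of that list were tested, and the median log2 ratio was 2.10. Of the 15, 10 were higher and none lower, beside 4.73% and 3.8% of all tested genes. Ccr6 stood at 120 and 128 CPM in class II positive against 16.6 and 4.44 CPM in class II zero cells (log2 3.61 ± 0.40, adjusted p = 7.4e-17). Cd4 stood at 159 and 106 against 12.1 and 9.77 CPM (log2 3.61 ± 0.38, adjusted p = 6.8e-19). Ccr7, the receptor that guides cells to lymph nodes, stood at 65.0 and 298 against 2.49 and 2.37 CPM (log2 6.08 ± 0.49), with UMIs in 13 and 11 cells. Cacna1g, a T-type calcium channel, stood at 179 and 156 against 15.4 and 8.59 CPM (log2 3.81 ± 0.35). In all 4 genes each class II positive value lay above each class II zero value.

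Other members of the list rose by less. The follicle-homing receptor Cxcr5 had a log2 ratio of 2.92 ± 0.54, the neuropeptide receptor Vipr2 2.94 ± 0.49, the RANK gene Tnfrsf11a 2.76 ± 0.84, Nrp1 2.10 ± 0.31, Tox2 1.73 ± 0.51 and Ret 1.16 ± 0.28. The 5 that did not pass were Lta and Ltb, the lymphotoxin chains, Tnfsf11, Il2ra and Gpr183, with log2 ratios from -0.35 to 0.36. Leaving out all cells with a Ccr6 or Cd4 UMI, 7 of the 10 still passed, and the other 3 were Tox2 and the 2 genes that had defined the cells left out. Without the replicate block Cxcr5, Tnfrsf11a, Vipr2, Ret and Tox2 lost the call, with DESeq2 Tnfrsf11a, Ret and Tox2, and without cells with T cell receptor or Cd8 UMIs Cxcr5, Tnfrsf11a and Vipr2.

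Genes of the NKp46 and type 1 programme were lower in class II positive cells. Of 18 tested, none was higher and 10 were lower, beside 4.73% and 3.8% of all tested genes. The median log2 ratio was -1.18. Ncr1 stood at 78.0 and 21.3 CPM in class II positive against 232 and 126 CPM in class II zero cells (log2 -1.74 ± 0.29, adjusted p = 2.0e-07). Serpinb9, a granzyme B inhibitor, stood at 315 and 568 against 1056 and 1480 CPM (log2 -1.57 ± 0.15), and Cxcr6 at 387 and 639 against 782 and 1614 CPM (log2 -1.17 ± 0.14). The log2 ratio was -1.66 ± 0.39 for Tbx21, which encodes T-bet, -1.98 ± 0.40 for the NK1.1 gene Klrb1c, -1.49 ± 0.24 for the NKG2D gene Klrk1 and -1.83 ± 0.48 for Cxcr3. Ctsw at -1.71 ± 0.29, Nkg7 at -1.20 ± 0.28 and the chemokine Xcl1 at -1.07 ± 0.19 completed the 10. All of them still passed without the cells rich in stromal or dendritic transcripts, and also without Ccr6 or Cd4 cells. None of them passed without the replicate block.

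**Figure D3:**
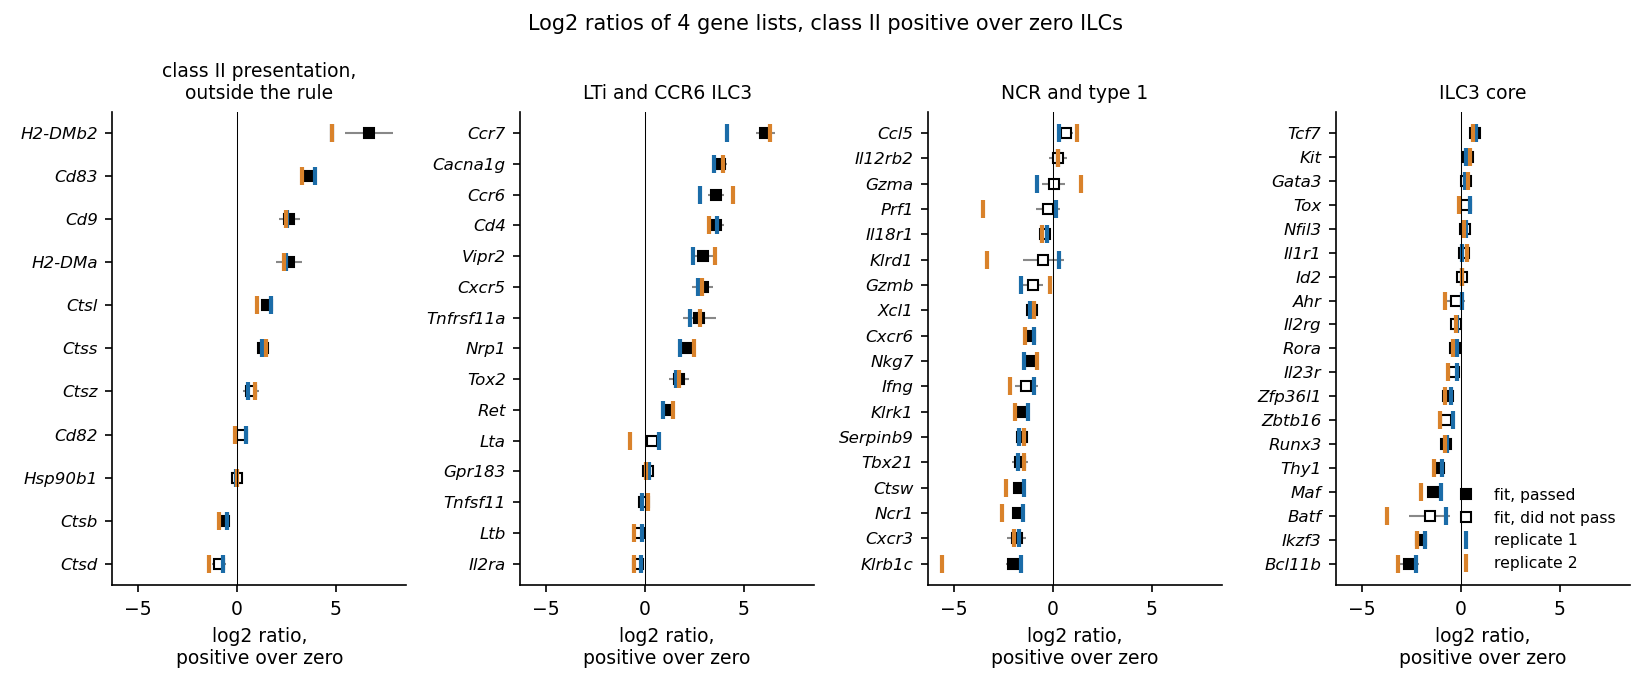
Log2 ratio of class II positive over class II zero ILCs (horizontal axes) for tested genes of 4 lists, one gene per row; squares give the fitted ratio with its standard error, filled where the adjusted p was below 0.05, and coloured ticks the ratio in each replicate with a prior count of 2, which draws sparse genes such as H2-DMb2 toward 0. LTi genes lie to the right of 0 down to Ret, and NCR and type 1 genes lie mostly to its left.

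Of 20 core ILC3 genes tested, 1 was higher and 6 were lower in class II positive cells, beside 4.73% and 3.8% of all tested genes, and the median log2 ratio was -0.26. Kit had a log2 ratio of 0.36 ± 0.17 (adjusted p = 0.21) and Il23r one of -0.36 ± 0.24 (adjusted p = 0.50). Tcf7, which encodes TCF-1, rose by 0.72 ± 0.17. The genes that fell were Bcl11b (-2.62 ± 0.53), Ikzf3 (-1.98 ± 0.28), Maf (-1.41 ± 0.15), Thy1 (-1.10 ± 0.13), Runx3 (-0.73 ± 0.15) and Zfp36l1 (-0.65 ± 0.10). Without the replicate block only Ikzf3 of these 7 genes kept its call. Tcf7 and Bcl11b lost it with DESeq2, Tcf7 without Ccr6 or Cd4 cells, and Zfp36l1 when each cell counted at most once. Thy1, a surface marker often used to gate ILCs, stood at 864 and 554 against 1721 and 1349 CPM.

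Among ILC3 effector genes, the growth factor gene Vegfa showed the largest ratio of the 11 tested, 4 of which were higher and 1 lower. Of all tested genes 4.73% were higher and 3.8% lower. Vegfa stood at 403 and 738 CPM in class II positive against 30.8 and 29.0 CPM in class II zero cells, an 18.4-fold ratio (log2 4.20 ± 0.21, adjusted p = 6.3e-82), with UMIs in 48 and 39 cells. Il17f stood at 224 and 142 against 32.4 and 36.4 CPM (log2 2.46 ± 0.28, adjusted p = 3.2e-16), and the sparser Il17a at 52.0 and 35.5 against 7.90 and 9.77 CPM (log2 2.37 ± 0.57). Il17a had 16 and 5 UMIs in 6 and 3 class II positive cells. Its call was lost with DESeq2, without the replicate block, at 8 or more UMIs, after thinning and when each cell counted at most once. Leaving out cells with T cell receptor or Cd8, immunoglobulin, or other B cell, dendritic cell or macrophage UMIs also ended it. Il22, the main epithelium-directed cytokine of ILC3s, stood at 4175 and 3145 against 2316 and 2488 CPM (log2 0.61 ± 0.10, adjusted p = 1.8e-07). The Il22 call was lost when each cell counted at most once, without Ccr6 or Cd4 cells and without the replicate block. Csf2 fell from 212 and 497 to 159 and 277 CPM (log2 -0.62 ± 0.20, adjusted p = 0.022), and the ranges of the 2 sides overlapped. The Csf2 call was lost with DESeq2, without the replicate block, at 8 or more UMIs and without Ccr6 or Cd4 cells, among other settings.

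Immediate early genes were higher in part, with 6 of 21 tested higher and 1 lower, beside 4.73% and 3.8% of all tested genes. Egr1 stood at 1326 and 369 CPM in class II positive against 278 and 97.7 CPM in class II zero cells (log2 2.15 ± 0.17, adjusted p = 1.7e-35), and Nr4a2 at 302 and 483 against 89.4 and 129 CPM (log2 1.83 ± 0.20). Jun, Fosb, Fos and Nfkbia rose by 0.74 ± 0.10, 0.68 ± 0.11, 0.47 ± 0.12 and 0.47 ± 0.11, and Nr4a3 had a log2 ratio of -0.53 ± 0.10. When each cell counted at most once per gene, Egr1 and Nr4a2 were the only 2 of the 7 that still passed. Heat shock genes, which mark handling as well as other stress, were higher for 5 of 8 tested, beside the same 4.73%. Hspa1b stood at 29.2 and 1249 CPM against 9.56 and 507 CPM (log2 1.30 ± 0.21), so the replicates differed far more than the sides. Hspa1a had a log2 ratio of 0.95 ± 0.23, Dnajb1 1.15 ± 0.26, Hsph1 1.03 ± 0.26 and Hsp90aa1 0.62 ± 0.13. Without cells that had T cell receptor or Cd8 UMIs, Hspa1a and Hspa1b were lower in class II positive cells instead, at -1.21 and -1.26, and none of the 5 passed when each cell counted at most once.

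Ccr9, whose ligand CCL25 draws lymphocytes into the small bowel, was lower in class II positive cells. It stood at 101 and 78.1 CPM against 489 and 311 CPM in class II zero cells (log2 -2.17 ± 0.23, adjusted p = 4.8e-18), with no overlap between the sides. The gut-homing integrin chain Itgb7 was lower by less, at 341 and 185 against 494 and 369 CPM (log2 -0.68 ± 0.18). Its partner Itga4 was higher (0.68 ± 0.20), as was Cxcr4 (1.49 ± 0.42), and both lost the call without Ccr6 or Cd4 cells. Of the 10 SETD1 complex genes, which include Cxxc1, the gene in the study's title, edgeR called 0 at the adjusted threshold and 0 at an unadjusted p under 0.05, and DESeq2 called 0. Cxxc1 stood at 94.2 and 99.4 CPM in class II positive and 75.2 and 61.9 CPM in class II zero cells (log2 0.48 ± 0.30, adjusted p = 0.46).

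By ratio alone, the 12 genes most raised held 2 kinds of gene. Several were spread over many cells. Ly86, the MD-1 partner of the receptor RP105, had 58 and 26 UMIs in 36 and 15 class II positive cells, or 188 and 185 CPM against 6.65 and 4.44 CPM in class II zero cells (log2 5.06 ± 0.38, adjusted p = 1.7e-36). Ncf1, a subunit of the phagocyte NADPH oxidase, had 28 and 31 UMIs in 18 and 9 cells (log2 5.01 ± 0.44), and Bend4 14 and 15 UMIs in 12 and 11 cells (log2 5.24 ± 0.74). Mpeg1, which encodes the pore-forming perforin-2, had 16 and 4 UMIs in 10 and 4 cells against 1 UMI on the other side. Its ratio was 150 in the fit. With both replicates pooled it was 258, with a counting interval of 41.2 to 10686. Dcstamp, a fusion protein gene of osteoclasts and dendritic cells, had 14 and 11 UMIs in 8 and 8 cells and none in class II zero cells. With the zero set to 3 UMIs over both replicates together, its pooled ratio was at least 107-fold.

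Other genes of the 12 came from a single cell in each replicate. Tff2, a mucosal trefoil peptide, had all its 61 and 101 class II positive UMIs in 1 cell of each replicate, and the same 2 cells held all of Gkn3 (15 and 24 UMIs) and Pigr (21 and 6), and 24 and 8 of the 25 and 8 UMIs of Muc6. These 2 cells had 13 and 10 class II UMIs of 1947 and 2764 in all and no Kit UMI. Fscn1, an actin-bundling protein of mature dendritic cells, had 31 of its 31 UMIs of replicate 2 in 1 cell, and H2-DMb2 and Ccr7 completed the list.

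Of the 12 most lowered genes, 11 had 76 to 240 UMIs in class II zero cells, and Pcp4 had more. Miat, Dus2, Abcf2, Adamts15 and Fbxo6 had no UMI in class II positive cells, against 204, 150, 132, 129 and 76 in class II zero cells. With the zero set to 3 UMIs over both replicates together, they were at least 5.28-, 3.88-, 3.41-, 3.34- and 1.97-fold lower in the pooled UMIs. Pooling leaves out the replicate block, and replicate 1 gave the larger class II positive but the smaller class II zero sum. Pcp4, a calmodulin-binding peptide gene, had 5 and 0 UMIs against 349 and 428 in 217 and 296 class II zero cells, or 145 and 127 CPM (log2 -3.64 ± 0.46, adjusted p = 5.0e-13). Gpr34, Rprm, Lrrn2, Necap1, Sema6a and Rnf43 each had 1 UMI in class II positive cells, against 130 to 240 in class II zero cells. The ratio of class II zero over positive was 15.5 for Gpr34 in the fit. Pooled it was 18.6 with a counting interval of 3.31 to 738, and the pooled intervals of the other 5 began at 1.78 or higher. Sema6a had 18 and 204 UMIs in class II zero cells of replicates 1 and 2, with log2 ratios of -0.91 and -5.62. Its fall thus lay mostly in replicate 2.

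Genes were also followed over the number of class II UMIs per cell, as a description. Cells with a Cd83 UMI made up 8.04% and 10.1% of cells with 0 class II UMIs in replicates 1 and 2, 18.2% and 14.1% at 1 to 3, 40.8% and 34.3% at 4 to 7, 45.7% and 58.6% at 8 to 19, and 72.2% and 84.6% at 20 or more. The share was higher at every step in both replicates, while median depth stayed between 1363 and 1903 UMIs per cell. Cells with a Ly86 UMI went from 1.02% and 0.664% at 0 to 36.1% and 46.2% at 20 or more. Vegfa cells went from 4.02% and 3.47% at 0 to 40.0% and 62.1% at 8 to 19, with no further step beyond. Ncr1 cells went from 30.8% and 18.0% at 0 to 5.56% of 36 cells and 0 of 13 cells at 20 or more. Thy1 cells went from 83.8% and 78.2% at 0 to 47.2% and 38.5% at 20 or more.

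**Figure D4:**
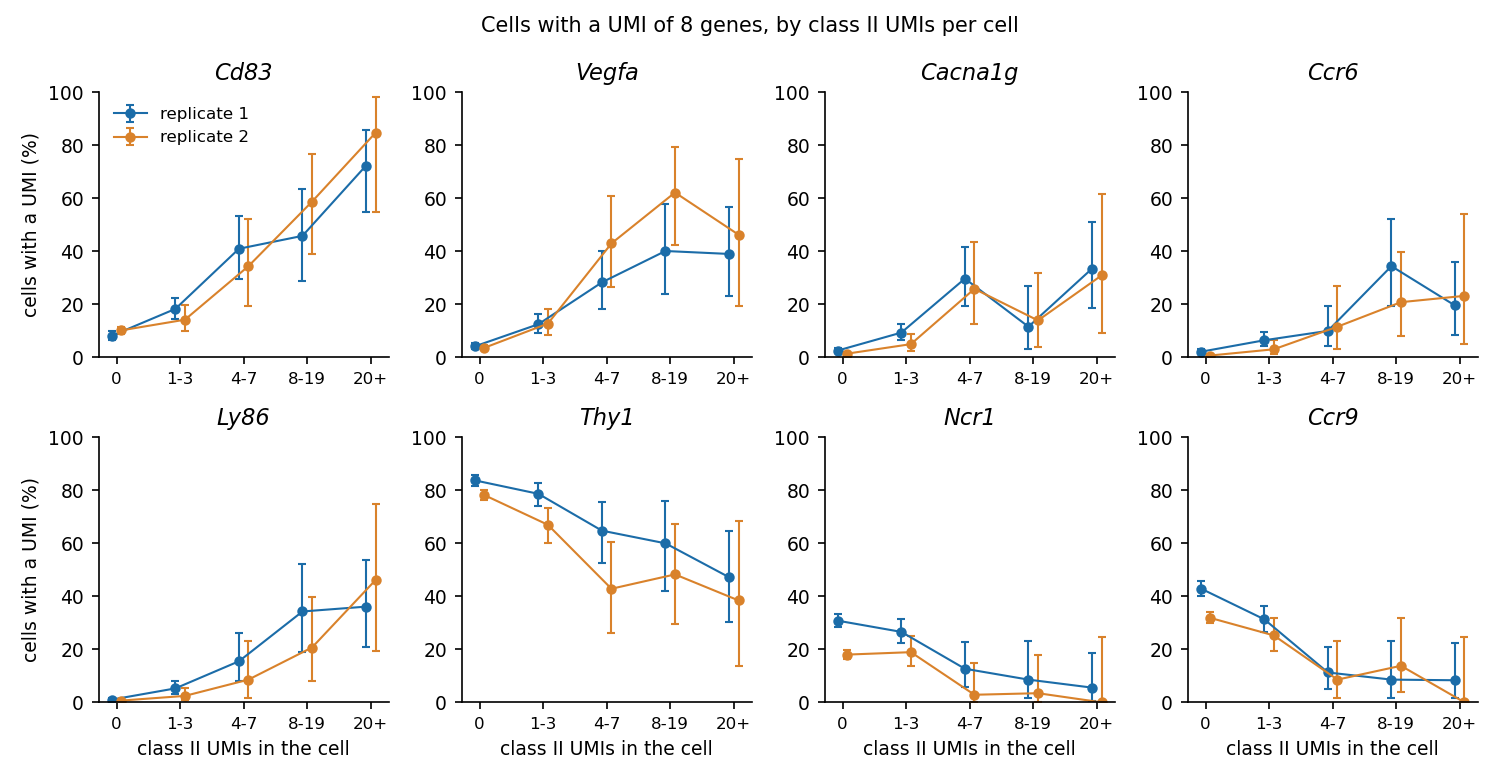
Percent of CD3-negative Il7r-positive cells with a UMI of 8 genes (vertical axes) by the number of class II UMIs in the cell (horizontal axes); points are replicates, bars exact 95% binomial intervals. Cd83 climbs from 8.04% and 10.1% of cells to 72.2% and 84.6%, and Ncr1 and Ccr9 decline over the same levels.

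Within cells that had a Ccr6 or Cd4 UMI, 40 and 19 were class II positive and 46 and 24 class II zero. The 19 cells fell below the minimum of 20 per sum, so values are given without a test. Cd83 stood at 1424 and 1719 CPM in class II positive against 167 and 116 CPM in class II zero cells, Vegfa at 634 and 1060 against 111 and 135 CPM, and Cacna1g at 168 and 201 against 33.4 and 19.3 CPM. Ncf1 and Tnfsf4 had no UMI on the class II zero side, against 16 and 14 UMIs of Ncf1 and 10 and 12 of Tnfsf4. Going the other way, Serpinb9 stood at 59.8 and 172 against 624 and 1311 CPM, and Ccr9 had 1 and 1 UMIs against 28 and 14. Il22 stood at 6449 and 3982 against 4656 and 3470 CPM, but its mean log2 ratio of 0.32 was -0.05 at 8 or more UMIs and -0.34 without cells with other B cell, dendritic cell or macrophage UMIs. Some genes raised over all ILCs were not raised in both replicates here. Il17f had log2 ratios of 1.38 and -0.18, and Cst3 of -0.31 and 0.20. Vipr2 and Il17a were near the floor. Vipr2 had 8 and 0 UMIs against 9 and 1 (log2 -0.03 and -0.66). Il17a had 4 and 0 UMIs against 0 and 1 (log2 1.40 and -0.66). For both genes the replicate 2 value rested on 1 UMI and gives no direction.

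With the positive side lowered to 2 or more class II UMIs, the sums held 55 and 26 against 46 and 24 cells and could be tested with edgeR. Of 1386 genes, 42 (3.03%) were higher and 34 (2.45%) lower at an adjusted p of 0.05. Cd83 (log2 3.23 ± 0.31, adjusted p = 2.4e-21), Vegfa (2.63), Cacna1g (2.84), Ly86 (3.03), Plek (4.27) and Ncf1, with 19 and 15 UMIs against none, were among the higher genes. Xcl1 (-3.76), Ikzf3 (-2.88), Ccr9 (-2.78) and Lck (-2.23) were among the lower genes. Plek was named after its values were seen.

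Transcripts from marker lists of other cell types were present on both sides in many cells. In replicates 1 and 2, a UMI of the B and plasma cell list was found in 55.6% and 19.5% of class II positive and 46.8% and 12.4% of class II zero cells, and one of the dendritic cell list in 62.0% and 50.6% against 51.5% and 44.0%. For the macrophage list the shares were 89.4% and 71.4% against 91.3% and 79.3%, and for the stromal list 48.6% and 27.3% against 47.9% and 18.6%. For the T cell list they were 53.5% and 37.7% against 81.3% and 79.5%. Without cells with T cell receptor or Cd8 UMIs, 80 and 54 class II positive cells and 331 and 594 class II zero cells remained. Most class II zero cells thus held such a UMI. The B cell genes Pax5 and Cd22, the dendritic cell genes Cd209a and Siglech and the macrophage gene Fcgr1 were at 0 UMIs on both sides. The dendritic cell genes Wdfy4 and Flt3 had more UMIs in the smaller class II positive sums, at 6 and 3 against 0 and 0 and at 2 and 2 against 1 and 0. Ccl22 had 52 UMIs against 2 in replicate 1, all 52 from 2 cells, and 1 against 2 in replicate 2. Itgax had 5 and 1 against 5 and 1, and Xcr1 0 and 0 against 2 and 1. The summed level of 17 B and plasma cell markers was 5069 and 121 CPM in class II positive against 772 and 92.1 CPM in class II zero cells, of 15 dendritic cell markers 1166 and 1306 against 435 and 377, and of 16 macrophage markers 1576 and 1157 against 1751 and 1240. The sum of 10 stromal and endothelial markers was 10703 and 199 against 959 and 152 CPM, and that of the T cell markers, of which 12 of 15 were found, was 614 and 532 against 1327 and 1311 CPM. Markers of ILC2s and of epithelium were too sparse for any to be tested. Trbc1, Trbc2 and Lck were lower in class II positive cells (log2 -1.19 ± 0.19, -1.25 ± 0.19 and -1.47 ± 0.26).

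Single cells carried much of the raised markers. Of the 1417 Igkc UMIs of class II positive cells in replicate 1, 1 cell held 1333, and replicate 2 had 3, so the log2 ratio of 2.81 ± 0.16 came from replicate 1. Of 1165 Col1a1 UMIs in replicate 1, 6 cells held 1143, and replicate 2 had 1 Col1a1 UMI (log2 3.98 ± 0.19 over both). All 6 cells had a UMI of Kit, Il23r, Il1r1 or Rora, which did not separate ILCs from the T cells of the sort. One cell of replicate 2 with 315 class II UMIs held 31 Fscn1, 71 Cst3 and 17 Ccr7 UMIs. Without the 7 and 1 class II positive and 36 and 2 class II zero cells rich in such genes, 262 genes were higher and 264 lower, and 250 and 236 of them were among the 382 and 307. The 5 stromal genes that had passed, and Fscn1, Cst3, Apoe, Tyrobp, Cd63 and Fcer1g, no longer did. Of these, Col1a1, Col1a2, Col3a1, Fscn1 and Cst3 had themselves been used to choose the cells left out. Cd83, Vegfa, Batf3, Adgre1 and Cd14, and 9 of the 10 LTi and all 10 NCR and type 1 genes, still did.

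Other dendritic cell, macrophage and B cell genes were raised from 3 to 22 cells a replicate. Batf3, a dendritic cell transcription factor, had 27 and 10 UMIs in 22 and 5 class II positive cells, or 87.7 and 71.0 CPM against 12.5 and 2.66 CPM (log2 3.44 ± 0.50, adjusted p = 5.1e-10). Zbtb46 stood at 58.5 and 106 against 20.4 and 39.7 CPM (log2 1.47 ± 0.37), and Blk, a Src-family kinase gene of B cells, at 35.7 and 71.0 against 2.91 and 24.0 CPM (log2 2.28 ± 0.51). Adgre1, the F4/80 gene, had 7 and 7 UMIs in 5 and 6 cells against 3 and 0, a pooled ratio of 60.2 with a counting interval of 16.8 to 326. Cd14 had 10 and 8 UMIs in 6 and 3 cells (log2 4.01 ± 0.84). Fcer1g was lower (log2 -0.47 ± 0.13). Without cells that had UMIs of other B cell, dendritic cell or macrophage genes, 274 genes were higher and 251 lower, and all 10 LTi and all 10 NCR and type 1 genes still passed. Fscn1, Cst3, Apoe and Tyrobp did not. Zbtb46, Adgre1 and Cd14 were among the genes that defined the cells left out, so they could not pass there. Zbtb46 also lost its call with DESeq2, without the replicate block, at 8 or more UMIs and after thinning. The part of these other cell types' transcripts in the results was not tested.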

How the data were processed

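Per the file headers, the deposited values are counts: whole-number UMIs per gene and cell from the BD WTA Multiplex Rhapsody Analysis Pipeline 1.8. The submitters' processing notes name HISAT2 2.0.5, Bowtie2, mm10 and GRCm38.p6, without their roles. Cells with other, undetermined or several sample tags were left out; no doublet caller was run. The members and the gene lists were chosen with earlier results of these data known.

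UMIs were summed per replicate and side. Both sides came from the same tagged sample, so the replicate was a block. The sums were compared with edgeR 4.0.16 (R 4.3.3; TMM, filterByExpr, quasi-likelihood test, Benjamini-Hochberg adjustment over all tested genes). DESeq2 1.42.0 was an alternative. The 12 rule genes stayed in library sizes and out of the test. CPM are UMIs scaled to 1000000 per sum. Sums under 20 cells were not tested. Stromal-rich cells had at least 5 UMIs of Col1a1, Col1a2, Col3a1 and Sparc, and dendritic-rich cells at least 10 of Cst3, Ccl22 and Fscn1; leaving them out, leaving out immunoglobulin-positive cells and counting cells in place of UMIs were chosen after seeing the data. The named genes were those of the lists and the 12 with the largest ratio in each direction among genes past the threshold with the same sign in both replicates and at least 20 UMIs on the higher side. On simulated sums for class II positive against zero cells (8034 genes), 27.1% of genes changed 2-fold and 62.5% of genes changed 4-fold were called, and 3 unchanged genes were. The simulation gave every gene the common spread of the real fit. It held no genes carried by 1 cell or moved in 1 replicate only, so it does not measure false calls in these data. Some genes of the lists are not reported here by name.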

Additional observations from a re-analysis of the deposited data

How the results depend on the processing

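The share of class II positive cells moved from a mean of 5.68% to 10.05% with a threshold of 2 UMIs, 2.92% with 8 and 3.51% with sides taken again after thinning, and ranged from 3.43% to 7.93% when 1 replicate was left out. Among cells without T cell receptor or Cd8 UMIs it was 14.5% and 7.52% in replicates 1 and 2. The count of higher genes, 382, became 186 with DESeq2, 70 without the replicate block, 232 with cells thinned to 1000 UMIs and sides kept, 134 with sides taken again after thinning, 243 without cells with T cell receptor or Cd8 UMIs, 227 without cells with immunoglobulin UMIs, and 201 with cells in place of UMIs. The count of lower genes, 307, became 65 with DESeq2, 12 without the replicate block, 199 with 2 or more UMIs, 178 with sides taken again after thinning, 147 under a stricter cell filter (500 genes, 10% mitochondrial UMIs), 198 without immunoglobulin cells, and 198 with cells in place of UMIs. The cause was not tested. With the replicate as a pairing between the 2 sides, a single replicate leaves no residual degrees of freedom, so no count was made without a replicate.

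Of the 99 named genes' values under the alternatives, 1320 stayed the same, 53 moved and 2 gained a call. Another 297 kept their direction but lost the call, among them 71 without the replicate block and 41 with DESeq2. The 14 values that reversed were as follows. The log2 ratio of Igkc was -0.83 with 8 or more UMIs, -1.54 with sides taken again after thinning, -1.02 under the stricter cell filter, -0.14 without cells with other B cell, dendritic cell or macrophage UMIs, and ranged from -0.64 to 3.28 without 1 replicate. The log2 ratio of Col1a1 was -1.78 with sides taken again, -0.86 without T cell receptor or Cd8 cells, -1.36 without immunoglobulin cells and ranged from -0.23 to 4.25 without 1 replicate. The log2 ratio of Hspa1a was -1.21 and the log2 ratio of Hspa1b -1.26 without T cell receptor or Cd8 cells. The log2 ratio of Hsph1 ranged from -0.46 to 1.39 without 1 replicate. The log2 ratio of Nfkbia was -0.016 with cells in place of UMIs, and the log2 ratio of Apoe -0.18 with sides taken again. Within Ccr6 or Cd4 cells a test was made at the 2 UMI threshold only. Cells with other B cell, dendritic cell or macrophage UMIs were left out only at 4 or more class II UMIs, where no test was made. At that threshold the mean log2 ratio of Plek went from 3.42 to 1.22 and that of Ly86 from 2.29 to 1.25. Plek then had 6 and 2 UMIs in class II positive against 0 and 2 in class II zero cells. The tested values at 2 or more UMIs were not checked in this way. The other size factors, DESeq2, no filter, no block and the side of 1 to 3 UMIs in the fit were not run on those cells.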
